A study of Mus musculus with 8 samples.

Results

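Glycolysis, the pentose phosphate pathway and the citrate cycle were followed step by step through 46 genes in marrow stem and progenitor cells of diabetic db/db mice. The genes encode glucose and lactate carriers, the enzymes of the 3 pathways, and the kinases and subunits of the pyruvate dehydrogenase gate between them. They were chosen by symbol, and all 46 were among the 13708 genes of the deposited count table. Of these, 21 belong to glycolysis with its inlets and outlets, 5 to the pyruvate dehydrogenase gate, 7 to the pentose phosphate pathway and 13 to the citrate cycle.

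LSK stands for the bone marrow fraction that lacks lineage antigens and carries Sca-1 and Kit, which holds the blood stem cells and their nearest progeny. These cells were sorted by flow cytometry, their RNA was extracted with Trizol, and polyadenylated RNA was sequenced from very small amounts. The 4 db/db libraries came from mice of the strain B6.BKS(D)-Leprdb/J, homozygous at the leptin receptor. The 4 db/m libraries came from mice labelled B6.BKS(D)-Leprdb/+ db/m, heterozygous carriers that keep a working copy of the receptor gene. The db mutation is carried in every cell of the body, so no cell type is singled out by the model. Every library, the db/m ones included, carries a label of 6 months after diabetes, and sex and age are not given. The title of each of the 8 samples names db/m, including those whose genotype and strain fields give the homozygous animals, so the groups were taken from the genotype field. The labels do not say that the libraries of a group came from separate mice, and p-values measure only the spread between these samples.

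Glycolysis turns glucose into pyruvate in the cytosol, and lactate dehydrogenase can then reduce pyruvate to lactate for export. The pentose phosphate pathway leaves glycolysis at glucose 6-phosphate, makes NADPH in its oxidative steps, and makes or recycles ribose in the others. Pyruvate dehydrogenase admits pyruvate to the citrate cycle in mitochondria, and the Pdk kinases close this gate by phosphorylating the enzyme. Blood stem cells in the low-oxygen marrow are known for a strong reliance on glycolysis, with Hif1a and the Pdk kinases among the known regulators.

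The 8 libraries held between 27640853 and 42806327 counts in genes. Both LSK antigens were present in every library. Kit ranged from 621 to 1054 CPM (read counts relative to library size after TMM scaling) in db/db and from 563 to 799 CPM in db/m, while Ly6a, which encodes Sca-1, ranged from 91.7 to 178 CPM in db/db and from 317 to 568 CPM in db/m. Ly6a, an antigen of the sort, was thus lower in every db/db library. Its log2 fold change, db/db over db/m, was -1.83, with an adjusted p of 0.0445 from edgeR's quasi-likelihood test over all genes. The T cell antigen Cd3e, which the sort removes, lay at 0.0485 to 1.43 CPM in db/db and 2.76 to 6.93 CPM in db/m. Cd8a was the only gene of the marker lists at 0 in any library. Deposited counts in intergenic sequence came to between 5.15% and 11.9% of mapped counts in db/db and between 12.2% and 26.5% in db/m. In bulk libraries such as these, fewer cells of a type and less RNA per cell cannot be told apart.

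None of the 46 genes passed an adjusted p of 0.05 between db/db and db/m in edgeR's quasi-likelihood test with Benjamini-Hochberg adjustment over all 13708 genes. The same test called 5 genes in the whole table, which is 0.0365%, so this fit called little anywhere. The smallest adjusted p among the 46 was 0.16, for Mdh1. Before adjustment, 6 of the 46 (13.0%) had a p under 0.05, against 15.3% of all genes tested. Of the 6, 5 were lower in db/db, where 7.54% of all genes were lower at that p, and 1 was higher, where 7.78% of all genes were higher. The share of the 46 therefore lay near the background in total. The 6 became 12 without db/m replicate 1, and 3 without either db/m replicate 3 or db/db replicate 2. The share of all genes under that p was not counted in these refits, so the changes have no background to be read against. In the authors' deposited table, made with another test of the same counts, 587 genes or 4.28% had a false discovery rate under 0.05, and none of the 46 did. The smallest deposited rate among them was 0.113, for Pgam1, and that of Mdh1 was 0.158.

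The differences were small. Log2 fold changes, db/db over db/m, ran from -0.57 for Pgam1 to 0.50 for Slc2a3, with 34 of 46 inside 0.3 in either direction. Of the 46, 30 (65.2%) were below 0, against 48.6% of all genes tested, and their median was -0.10, against 0.01 for all genes. Mdh1 was the only gene of the 46 whose db/db and db/m libraries did not overlap in CPM (2.17%), against 9.03% of all genes. That count rested on single libraries: it was 10 of 46 without db/m replicate 1, where 17.3% of all genes did not overlap, and 6 of 46 without db/db replicate 3, where the share of all genes was 17.9%. It was 2 or 3 without any other library except db/db replicate 2, without which it was 1, where the share of all genes was 10.8%. In every refit without a library that share lay between 10.8% and 17.9%. With RLE scaling in place of TMM the count was 2, against 9.15% of all genes.

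**Figure D1:**
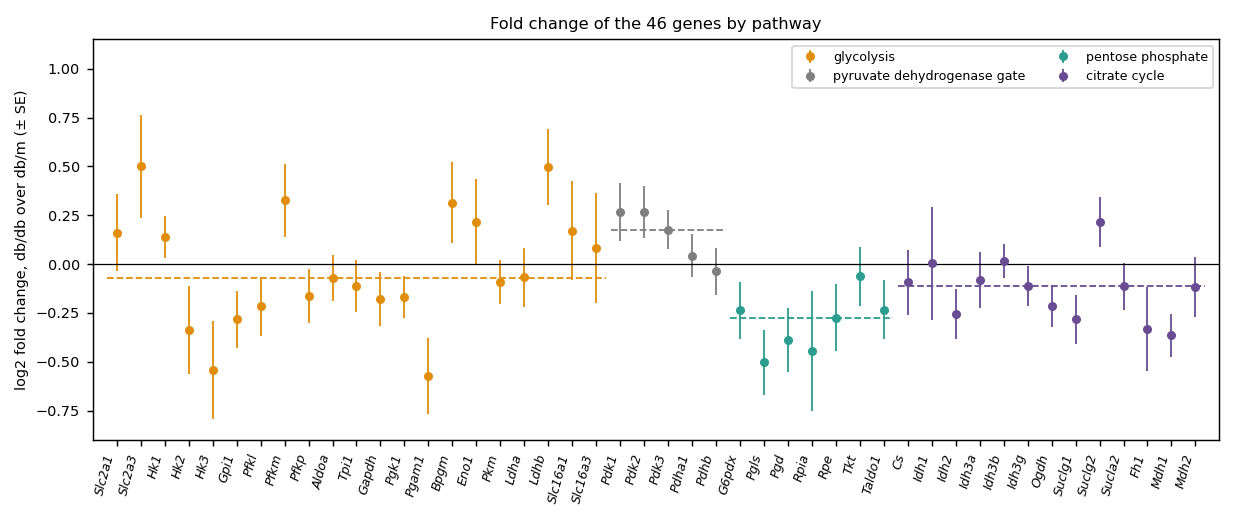
Log2 fold change, db/db over db/m, of each of the 46 genes in pathway order, with bars of 1 standard error from edgeR's quasi-likelihood fit. All 7 pentose phosphate genes and 10 of 13 citrate cycle genes lie below 0, 4 of 5 genes of the pyruvate dehydrogenase gate lie above it, and no gene passed an adjusted p of 0.05.

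Step by step, the 3 pathways differed in how uniformly their genes lay below 0. In the pentose phosphate pathway all 7 genes had a negative log2 fold change, with a median of -0.27, although that of Tkt turned to 0.012 without db/db replicate 2 and to 0.00032 without db/m replicate 3. In the citrate cycle 10 of 13 were negative, with a median of -0.11 that became -0.24 without db/db replicate 3. In glycolysis 12 of 21 were negative and 9 positive, with a median of -0.07 that became -0.14 without db/m replicate 1 and -0.026 without db/m replicate 3. At the pyruvate dehydrogenase gate 4 of 5 were positive, with a median of 0.18. No difference between the pathways was tested, and none of these directions rests on a gene that passed the adjusted threshold.

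Levels between genes were compared as CPM per kilobase of the length given in the count table. Glycolytic genes held the top 4 places among the 46. Gapdh stood highest, at 723 in db/db and 817 in db/m, followed by Ldha at 645 in db/db and 676 in db/m, Pkm at 549.7 in db/db and 586 in db/m and Aldoa at 344 in db/db and 362 in db/m. The fifth was Mdh2 of the citrate cycle, at 304 in db/db and 330.0 in db/m. At the low end, all in CPM per kilobase, the lactate exporter Slc16a3 stood at 2.7 in db/db and 2.55 in db/m, Rpia at 2.58 in db/db and 3.52 in db/m and Eno1 at 3.59 in db/db and 3.09 in db/m. Some of these levels are uncertain, because the genes share sequence with near-identical copies. Sharing was counted over all 100-base windows of each gene's longest protein-coding transcript in GENCODE vM21. Gapdh shared 78% with other genes of the same annotation, Pgk1 67%, Eno1 59% and Pgam1 39.7%. Suclg2 shared 11.9%, Pdhb 10.5%, Pkm 9.82%, Ldhb 8.8% and Gpi1 4.92%. Ldha shared 1.28%, Tpi1 0.796% and G6pdx 0.235%, and the other 34 genes shared none. Exons of Hk3, Pfkp, Tpi1, Pdha1, Rpe and Idh3b also overlap exons of a gene on the other strand, and the strand setting of the counting is not given in the sources used here.

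**Figure D2:**
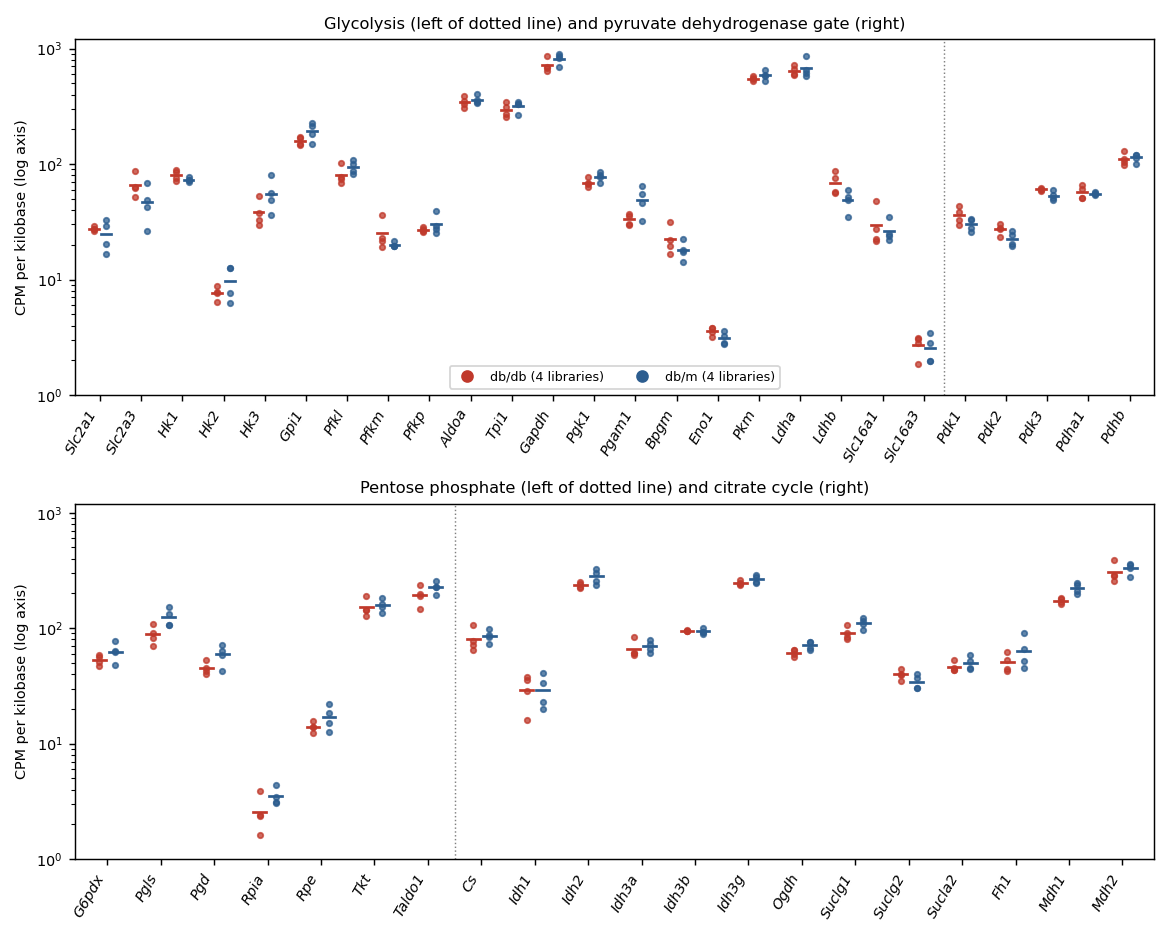
Level of each of the 46 genes in CPM per kilobase (log axis) in pathway order, for db/db and db/m, with the means of 4 libraries. Gapdh, Ldha, Pkm and Aldoa stand highest, and Eno1, Rpia and Slc16a3 lowest, in both groups.

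Promoters were read from RefSeq (GRCm38.p6, 250 bases before to 50 bases after each start) for 44 of the 46 genes, to lay out the core of the motif that Hif1a with Arnt is known to bind. GCGTG, the other form of that core, was not searched and is not in any count here. The core searched was ACGTG on either strand, where CACGTG, the E-box of Myc and of the Mlx partners, counts on both strands. It was in a promoter of 13 of 20 glycolytic genes (65%), 3 of 5 gate genes (60%), 1 of 7 pentose phosphate genes (14.3%) and 3 of 12 citrate cycle genes (25%). Among the 10417 genes of the count table with a promoter in the same source the share was 28.9%. Counted by promoter window, since genes differ in how many starts they list, it was 50% of windows in glycolysis, 42.9% at the gate, 12.5% in the pentose phosphate pathway and 44.4% in the citrate cycle, against 24.9% for the count table. Of the 8 citrate cycle windows with the core, 6 were neighbouring starts of Ogdh. A match is a string of letters and no evidence of binding, and no binding was measured here. The promoters of both lactate dehydrogenase genes and of Mdh1 are shown because Ldha and Ldhb are compared within a step and Mdh1 is the gene whose groups stood apart, with each match in capitals, on the strand of the gene.
Ldha promoter, chr7:46845554-46845853, plus strand: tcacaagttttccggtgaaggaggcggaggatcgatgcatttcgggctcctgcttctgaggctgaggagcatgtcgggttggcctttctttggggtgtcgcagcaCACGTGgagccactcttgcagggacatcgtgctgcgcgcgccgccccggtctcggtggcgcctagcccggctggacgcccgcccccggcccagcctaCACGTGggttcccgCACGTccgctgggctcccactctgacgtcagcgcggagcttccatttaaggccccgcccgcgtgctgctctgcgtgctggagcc
Ldhb promoter, chr6:142507908-142508207, minus strand: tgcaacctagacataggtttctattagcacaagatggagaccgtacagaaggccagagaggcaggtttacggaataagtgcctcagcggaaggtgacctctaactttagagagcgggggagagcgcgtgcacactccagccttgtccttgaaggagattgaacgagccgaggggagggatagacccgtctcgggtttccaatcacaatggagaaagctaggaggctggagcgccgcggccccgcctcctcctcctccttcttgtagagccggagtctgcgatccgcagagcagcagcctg
Mdh1 promoter, chr11:21571885-21572184, minus strand: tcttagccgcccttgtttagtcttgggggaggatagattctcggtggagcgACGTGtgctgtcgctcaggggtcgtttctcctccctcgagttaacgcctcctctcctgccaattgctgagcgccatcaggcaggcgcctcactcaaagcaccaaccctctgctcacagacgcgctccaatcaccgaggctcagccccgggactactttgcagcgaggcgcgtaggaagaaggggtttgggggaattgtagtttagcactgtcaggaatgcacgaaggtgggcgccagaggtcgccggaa
Ldha held 5 matches counted over both strands, Mdh1 held 1 and Ldhb none in this window. Ldha lists a further start whose window held none.

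Glucose enters blood cells through the carriers Slc2a1 (GLUT1) and Slc2a3 (GLUT3). In the order of replicates 1 to 4, used for all values by library from here on, Slc2a3 had 248, 343, 206 and 246 CPM in db/db and 169.6, 270.1, 105 and 193 CPM in db/m. The db/db libraries centred higher, but all of them except the one with 343 CPM lay under the db/m library with 270 CPM, and the groups overlapped. The log2 fold change was 0.50 ± 0.26 (SE), with an adjusted p of 0.402 from edgeR's quasi-likelihood test, and 0.30 without db/m replicate 3. Its value and that of Ldhb were the highest among the 46. Slc2a1 averaged 70.8 ± 2.55 CPM in db/db and 63.4 ± 19.3 CPM in db/m (SD, n = 4 each).

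Hexokinases trap glucose as glucose 6-phosphate. Hk1, the form most abundant per length, had 398, 322, 389 and 341 CPM in db/db and 327, 350.1, 313 and 327 CPM in db/m. Its log2 fold change was 0.14 ± 0.11 (SE), a difference within the spread between libraries. Hk2 averaged 42.4 ± 5.57 CPM in db/db and 53.6 ± 17.7 CPM in db/m, and Hk3, the form typical of myeloid cells, 124 ± 33.2 CPM in db/db and 181 ± 60.6 CPM in db/m (SD, n = 4 each). The db/m libraries of Hk3 spread widely and overlapped those of db/db, and its log2 fold change of -0.54 had an unadjusted p of 0.0548 in edgeR's quasi-likelihood test.

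Gpi1, which interconverts glucose and fructose 6-phosphate, had 482, 421, 494 and 435 CPM in db/db and 427, 616, 530.2 and 652 CPM in db/m. Pfkl, the liver-type subunit of phosphofructokinase, the committed step of glycolysis, had 383, 285, 257 and 278 CPM in db/db and 306, 402, 370.0 and 321 CPM in db/m. Aldoa, the aldolase that splits the 6-carbon sugar, had 705, 603, 563 and 639 CPM in db/db and 625, 745, 615 and 654 CPM in db/m. In all 3 genes the groups overlapped, with log2 fold changes of -0.28 ± 0.15 for Gpi1, -0.22 ± 0.15 for Pfkl and -0.072 ± 0.12 for Aldoa (SE). Of the other phosphofructokinase subunits, Pfkm averaged 76.7 ± 23.5 CPM in db/db and 61.2 ± 3.28 CPM in db/m and Pfkp 113 ± 5.47 CPM in db/db and 126 ± 25.3 CPM in db/m (SD, n = 4 each).

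Lower glycolysis pays back ATP and NADH. Tpi1, which equalises the triose phosphates, had 495, 438, 549 and 406 CPM in db/db and 425, 535, 554 and 527 CPM in db/m. Gapdh, the dehydrogenase that makes NADH, had 1021, 955, 1303 and 1046 CPM in db/db and 1032, 1243, 1335 and 1278 CPM in db/m. Pgk1, which makes ATP from the product of Gapdh, had 116, 125, 140.5 and 123 CPM in db/db and 124, 146, 155 and 141 CPM in db/m. None of these 3 genes separated the groups, with log2 fold changes of -0.11 ± 0.14 for Tpi1, -0.18 ± 0.14 for Gapdh and -0.17 ± 0.11 for Pgk1 (SE). For Gapdh, replicate 3 was the highest library within each group.

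Pgam1, the phosphoglycerate mutase, had the most negative value of the 46. It had 67.5, 54, 65.4 and 55.8 CPM in db/db and 58.7, 84.7, 117 and 99.9 CPM in db/m. The 4 db/db libraries lay close together, and 3 of 4 db/m libraries stood above all of them, while db/m replicate 1 lay within their range. With 39.7% of its windows shared with other genes, the level is uncertain. The log2 fold change was -0.57 ± 0.19 (SE), with an unadjusted p of 0.0149 and an adjusted p of 0.206 from edgeR's quasi-likelihood test. Bpgm, which diverts the product of Gapdh to 2,3-bisphosphoglycerate in red cells, had 45.4, 40.3, 34.5 and 64.5 CPM in db/db and 46.2, 37.3, 29.5 and 35.6 CPM in db/m. Its highest library was db/db replicate 4, and the log2 fold change of 0.31 ± 0.21 (SE) became 0.097 without that library.

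The row of Eno1, the enolase of most tissues, held very few counts, at 6.29, 5.62, 6.79 and 6.78 CPM in db/db and 4.96, 5.79, 6.32 and 4.89 CPM in db/m. The log2 fold change was 0.21 ± 0.22 (SE), and with 59% of its windows shared with copies such as Eno1b the level of enolase cannot be read from this row. Pkm, pyruvate kinase, the last step before pyruvate, had 1502, 1409, 1434 and 1369 CPM in db/db and 1371, 1684, 1536 and 1499 CPM in db/m. Its groups overlapped, with a log2 fold change of -0.092 ± 0.11 (SE).

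Lactate dehydrogenase is built from subunits encoded by Ldha, which is known to favour lactate, and Ldhb, which is known to favour pyruvate. Their promoters, printed above, held 5 matches of ACGTG, the form of the motif core that was searched, for Ldha, counted over both strands, and 0 for Ldhb. The window of the further Ldha start held none. Ldha had 1279.8, 1135, 1402 and 1162 CPM in db/db and 1111, 1256, 1661 and 1193 CPM in db/m. The groups overlapped, and the log2 fold change was -0.068 ± 0.15 (SE), which turned to 0.059 without db/m replicate 3, the highest of the 8 libraries. Ldhb had 99, 114, 75.2 and 72.5 CPM in db/db and 78.1, 68.2, 45.5 and 63.5 CPM in db/m. Only db/m replicate 1 reached the range of the db/db libraries, and the log2 fold change was 0.50 ± 0.20 (SE), with an unadjusted p of 0.029 and an adjusted p of 0.266 from edgeR's quasi-likelihood test. Slc16a1 (MCT1), which carries lactate in either direction, had 95.9, 99.8, 210.2 and 121 CPM in db/db and 97.3, 107, 154 and 110.0 CPM in db/m. Db/db replicate 3 was its highest library, and the log2 fold change of 0.17 ± 0.25 (SE) became -0.15 without that library. Slc16a3 (MCT4), the exporter of strongly glycolytic cells, averaged 6.96 ± 1.52 CPM in db/db and 6.57 ± 1.84 CPM in db/m (SD, n = 4 each).

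**Figure D3:**
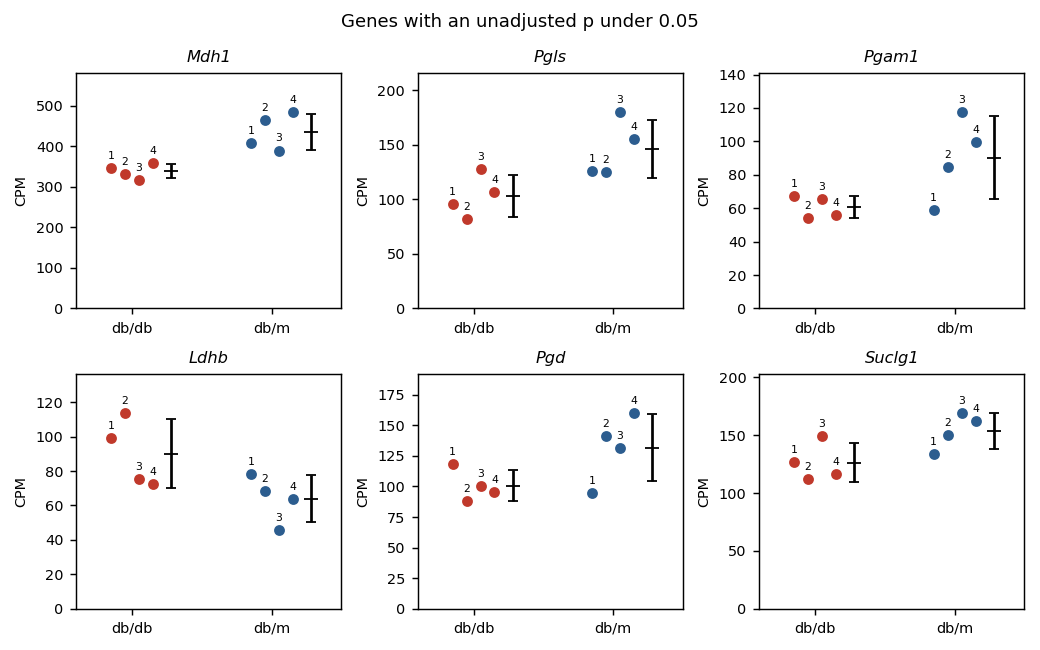
CPM of the 6 genes with an unadjusted p under 0.05 in each library, with db/db on the left and db/m on the right of each panel and the mean of 4 libraries as a bar. The groups of Mdh1 do not overlap, and in the other 5 genes at least 1 library lies within the range of the other group.

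At the pyruvate dehydrogenase gate the kinases stood a little higher in db/db on average. Pdk3, the most abundant of them per length, had 119.8, 123, 124 and 117 CPM in db/db and 102, 96.7, 109 and 119 CPM in db/m. A single db/m library, replicate 4, lay within the db/db range, and the log2 fold change was 0.18 ± 0.10 (SE), with an adjusted p of 0.432 from edgeR's quasi-likelihood test. Pdk1, a target of Hif1a, averaged 187 ± 32.4 CPM in db/db and 156 ± 19.4 CPM in db/m, and Pdk2 61.6 ± 6.67 CPM in db/db and 51.2 ± 7.31 CPM in db/m (SD, n = 4 each). Their log2 fold changes were 0.27 for Pdk1 and 0.27 for Pdk2, with groups that overlapped. For the enzyme itself, Pdhb, the beta subunit, had 145, 156, 194 and 165 CPM in db/db and 179, 150.2, 169 and 179.7 CPM in db/m, and Pdha1, the catalytic alpha subunit, averaged 158 ± 20.4 CPM in db/db and 153 ± 3.89 CPM in db/m (SD, n = 4 each). For Pdhb the log2 fold change was -0.038 ± 0.12 (SE).

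The oxidative branch of the pentose phosphate pathway runs through 3 enzymes, of which the dehydrogenases at either end make NADPH. G6pdx, the glucose 6-phosphate dehydrogenase that sets the pace of the pathway, had 146, 123, 153 and 134 CPM in db/db and 127, 165, 201 and 164 CPM in db/m. Pgls, the lactonase that follows it, had 95.3, 82.3, 128 and 107 CPM in db/db and 126, 125, 179.6 and 155 CPM in db/m. Pgd, which releases carbon dioxide and ribulose 5-phosphate, had 118, 88.5, 101 and 95.3 CPM in db/db and 94.6, 141, 131 and 160.3 CPM in db/m. In each of the 3 genes most db/m libraries stood above most db/db libraries, and the ranges overlapped. On the log2 scale, db/db over db/m, they came to -0.24 ± 0.15 (SE) for G6pdx, -0.50 ± 0.17 for Pgls and -0.39 ± 0.16 for Pgd. In edgeR's quasi-likelihood test the unadjusted p was 0.0131 for Pgls and 0.0391 for Pgd, and the adjusted p was 0.196 for Pgls and 0.298 for Pgd. The single db/m library that overlapped for Pgd was replicate 1.

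The non-oxidative branch shuffles sugars between ribose and glycolysis. Rpia, the ribose isomerase, had 2.88, 4.23, 6.91 and 4.27 CPM in db/db and 5.48, 6.17, 5.56 and 7.71 CPM in db/m. Rpe, the ribulose epimerase, had 37, 41.5, 32.8 and 36.6 CPM in db/db and 33.5, 48.3, 39.6 and 57.5 CPM in db/m. Tkt, the transketolase, had 462, 410.1, 614 and 466 CPM in db/db and 438, 488, 585 and 528 CPM in db/m. The groups overlapped in all 3, with log2 fold changes of -0.45 ± 0.31 for Rpia, -0.27 ± 0.17 for Rpe and -0.063 ± 0.15 for Tkt (SE). Taldo1, the transaldolase, had 243, 189, 299 and 250.5 CPM in db/db and 246, 289.6, 292 and 327 CPM in db/m, with a log2 fold change of -0.23 ± 0.15 (SE). The db/db library that reached furthest into the db/m range of Tkt and Taldo1 was replicate 3. Averaged over the 7 pentose phosphate genes, the log2 level centred on the 8 libraries was -0.20, -0.31, 0.074 and -0.16 in db/db and -0.13, 0.16, 0.24 and 0.34 in db/m. These mean levels overlapped too, since db/m replicate 1 lay among the db/db libraries and db/db replicate 3 among those of db/m.

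The citrate cycle begins with Cs, citrate synthase, which had 217, 182, 302 and 203 CPM in db/db and 205, 236, 276 and 249 CPM in db/m. Idh2, the mitochondrial NADP-dependent isocitrate dehydrogenase, had 413, 382, 427 and 384 CPM in db/db and 403, 441, 558 and 517 CPM in db/m. Idh3g, a regulatory subunit of the NAD-dependent enzyme, had 326, 314, 349 and 321 CPM in db/db and 332, 328, 385 and 370.3 CPM in db/m. The groups overlapped in each, with log2 fold changes of -0.094 ± 0.17 for Cs, -0.26 ± 0.13 for Idh2 and -0.11 ± 0.10 for Idh3g (SE). Cytosolic Idh1 averaged 71.6 ± 23.6 CPM in db/db and 71.4 ± 23.3 CPM in db/m (SD, n = 4 each), with a log2 fold change of 0.0032. The remaining subunits of the NAD-dependent enzyme averaged 159.6 ± 28.9 CPM in db/db and 169 ± 19.1 CPM in db/m for Idh3a and 145 ± 1.61 CPM in db/db and 143 ± 6.69 CPM in db/m for Idh3b.

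Ogdh, the decarboxylating subunit of the 2-oxoglutarate dehydrogenase complex, had 455, 389.7, 449 and 417 CPM in db/db and 452, 532, 529 and 471 CPM in db/m. Suclg1, the alpha subunit shared by both succinyl-CoA ligases, had 127, 112, 149.6 and 117 CPM in db/db and 134, 150.0, 169 and 162 CPM in db/m. Both genes were lower on average in db/db, with ranges that overlapped. Their log2 fold changes were -0.21 ± 0.11 for Ogdh and -0.28 ± 0.12 for Suclg1 (SE), and Suclg1 had an unadjusted p of 0.0468 and an adjusted p of 0.319 in edgeR's quasi-likelihood test. Its partners that decide between GTP and ATP averaged 136 ± 13.6 CPM in db/db and 117 ± 16.3 CPM in db/m for Suclg2, and 97.6 ± 9.2 CPM in db/db and 106 ± 13.9 CPM in db/m for Sucla2 (SD, n = 4 each). Fh1, fumarase, had 85.9, 69.8, 102 and 73 CPM in db/db and 74.3, 85.3, 149 and 108 CPM in db/m, with a log2 fold change of -0.33 ± 0.22 (SE) that became -0.12 without db/m replicate 3.

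Mdh1, the cytosolic malate dehydrogenase of the malate-aspartate shuttle, was the one gene of the 46 whose groups stood apart. It lies on chromosome 11 from 21556692 to 21571934 (mm10, minus strand) and had 348, 332, 318 and 358 CPM in db/db and 408, 464, 389 and 483 CPM in db/m. All 4 db/db libraries lay below all 4 db/m libraries. The mean was 339 ± 17.7 CPM in db/db and 436 ± 44.5 CPM in db/m (SD, n = 4 each). The log2 fold change was -0.36 ± 0.11 (SE), with an unadjusted p of 0.00801 and an adjusted p of 0.16 from edgeR's quasi-likelihood test, so it did not pass. DESeq2, which called 757 genes across the whole table of 13708 and only Mdh1 among the 46, gave it an adjusted p of 0.0364. Mdh2, the mitochondrial malate dehydrogenase that closes the citrate cycle, had 370.3, 328, 502 and 362 CPM in db/db and 358, 450.4, 458 and 426 CPM in db/m. Its groups overlapped, with a log2 fold change of -0.12 ± 0.15 (SE).

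The 14 genes described by level alone had log2 fold changes between -0.54 for Hk3 and 0.33 for Pfkm. None of them had an unadjusted p under 0.05 in edgeR's quasi-likelihood test.

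Isozymes that share a step were compared within each library, where scaling between libraries plays no part. As shares of counts per kilobase at their step, Hk1 made up 63.9% ± 4.53 in db/db and 53.3% ± 6.04 in db/m of hexokinase and Hk3 29.9% ± 5.01 in db/db and 39.4% ± 8.89 in db/m (SD, n = 4 each). Ldhb made up 9.75% ± 2.43 in db/db and 7.02% ± 2.3 in db/m of lactate dehydrogenase. Pfkl made up 60.6% ± 5.85 in db/db and 65.1% ± 3.16 in db/m of phosphofructokinase, and Slc2a3 70.05% ± 3.94 in db/db and 64.8% ± 5.17 in db/m of the pair of glucose carriers. By mean share the same isozyme led each of these steps in both groups. In db/m replicate 4, however, Hk3 made up 50.5% of hexokinase and Hk1 45.6%. Among mitochondrial and cytosolic forms, Mdh2 made up 63.3% ± 4.94 in db/db and 59.7% ± 3.25 in db/m of malate dehydrogenase and Idh2 88.9% ± 3.58 in db/db and 90.7% ± 1.92 in db/m of the NADP-dependent isocitrate dehydrogenase.

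Of 12 log2 ratios of isozymes, none had an adjusted p under 0.05 in an exact two-sided permutation test of the 8 libraries. That test cannot go below 0.0286 before adjustment. After adjustment over the 12 ratios, a ratio standing alone at that floor could not pass 0.05. The lack of calls is therefore no evidence that the ratios were unchanged. In all 12 the groups overlapped. The ratio of Hk3 to Hk1, as log2 of counts per kilobase, was -0.75, -0.93, -1.54 and -1.21 in db/db and -0.99, -0.67, -0.30 and 0.15 in db/m. The db/m libraries with the most Hk3 were replicates 3 and 4, and the difference of db/db minus db/m was -0.65, with an exact p of 0.0857 and an adjusted p of 0.441. The log2 ratio of Ldhb to Ldha, per kilobase, was -3.13, -2.75, -3.65 and -3.44 in db/db and -3.26, -3.64, -4.62 and -3.67 in db/m. Db/m replicate 3 stood lowest, and the difference was 0.56, with an exact p of 0.171 and an adjusted p of 0.441. Leaving out that library gave a difference of 0.28. The ratio of Pfkm to Pfkl differed by 0.51, with an exact p of 0.114 and an adjusted p of 0.441, and this difference was 0.24 without db/db replicate 3.

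**Figure D4:**
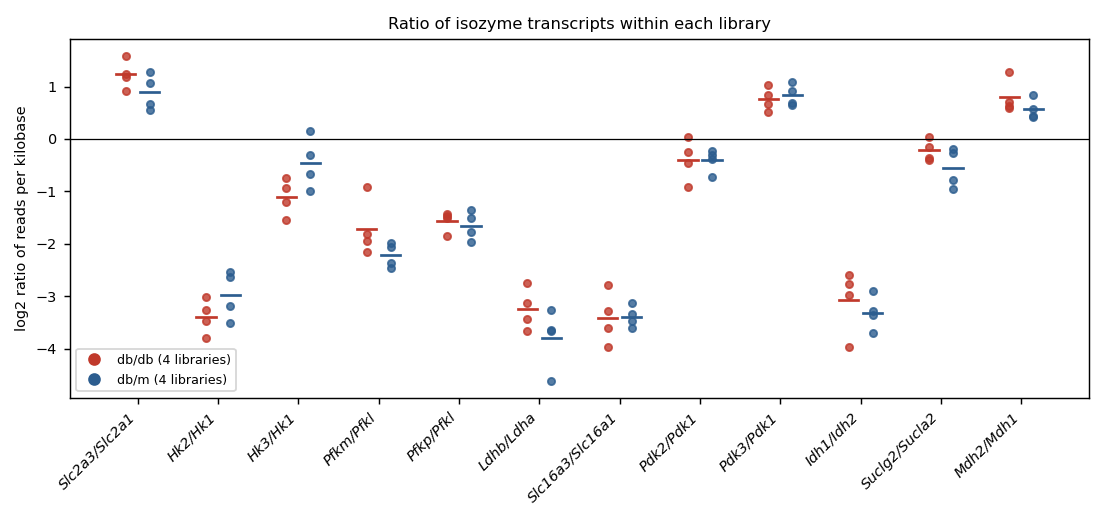
Log2 ratio of counts per kilobase of 12 isozyme pairs in each library, with db/db left of db/m for each pair. The groups overlap in all 12 pairs, and the widest gap between group means is that of Hk3 to Hk1.

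Of 74 further genes of these pathways, 62 were in the table, and none passed an adjusted p of 0.05 in edgeR's quasi-likelihood test. At an unadjusted p under 0.05 there were 14 (22.6%), 8 lower and 6 higher in db/db, against 15.3% of all genes. In 7 of the 62 (11.3%) the groups did not overlap, against 9.03% of all genes. Pgam2, the muscle-type phosphoglycerate mutase, had 3.57, 2.1, 3.28 and 5.99 CPM in db/db and 11.7, 16.3, 8.2 and 9.23 CPM in db/m, all 4 db/db libraries below all 4 db/m libraries, with a log2 fold change of -1.61 ± 0.36 (SE) and an adjusted p of 0.0937. Pfkfb4, which makes and breaks fructose 2,6-bisphosphate, an activator of phosphofructokinase, had 32, 24.3, 27 and 29.7 CPM in db/db and 20.5, 15.1, 18.2 and 15 CPM in db/m. All 4 db/db libraries stood above all 4 db/m libraries, with a log2 fold change of 0.72 ± 0.16 and an adjusted p of 0.0947. Got1, the aspartate aminotransferase that works beside Mdh1 in the cytosolic arm of the malate-aspartate shuttle, had 29.2, 27, 31.3 and 28.5 CPM in db/db and 34.5, 43.6, 43 and 41.1 CPM in db/m. Its groups stood apart in the same direction as those of Mdh1, with a log2 fold change of -0.48 ± 0.12 and an adjusted p of 0.116. The groups of other genes of that shuttle overlapped, with log2 fold changes of -0.16 for Got2, -0.076 for Slc25a11 and -0.12 for Mdh2. Pdp1, the phosphatase that reopens the pyruvate dehydrogenase gate, had 39.4, 48.4, 36.1 and 32.1 CPM in db/db and 25.7, 31.7, 28.3 and 25.8 CPM in db/m. All db/db libraries were the higher, with a log2 fold change of 0.49 ± 0.15 and an adjusted p of 0.175. The other genes of smallest p were Fbp1, a fructose bisphosphatase of gluconeogenesis, at 0.67 ± 0.20 on the log2 scale with an adjusted p of 0.147, and the carrier Slc2a6, at -1.50 ± 0.47 with an adjusted p of 0.169.

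Among regulators of the pathways, 17 of 18 listed genes were in the table, none passed the adjusted threshold in edgeR's quasi-likelihood test, and 3 (17.6%) had an unadjusted p under 0.05, against 15.3% of all genes. Egln1, the prolyl hydroxylase that marks Hif1a for destruction when oxygen is present, had 41.7, 35.6, 42.1 and 39.5 CPM in db/db and 57.4, 72.4, 69.7 and 68.4 CPM in db/m. All 4 db/db libraries lay below all 4 db/m libraries, with a log2 fold change of -0.75 ± 0.12 (SE) and an adjusted p of 0.074. Hif1a itself, whose control by Egln1 acts on the protein, had a log2 fold change of -0.18. The others under 0.05 were Mlx, a partner of the glucose-sensing factors, at -0.36 with an adjusted p of 0.28, and Cited2, a transcriptional co-regulator, at 0.39 with an adjusted p of 0.308.

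Marker lists of other cell types moved with the groups or with single libraries, and their part in the levels of the pathway genes was not tested. The 16 erythroid markers summed to 1937 to 5567 CPM in db/db and 1098 to 1394 CPM in db/m, and the 16 plasma cell markers to 1799 to 7157 CPM in db/db and 5366 to 20637 CPM in db/m. The 14 granulocyte-monocyte markers summed to 3361 to 6930.3 CPM in db/db and 4692 to 15629 CPM in db/m, and the 15 markers of dividing cells to 1699 to 2662 CPM in db/db and 1482 to 3328 CPM in db/m. The 14 megakaryocyte markers summed to 2001 to 3327 CPM in db/db and 857 to 1574 CPM in db/m, and the 12 lymphoid markers to 1206 to 1497 CPM in db/db and 1699.9 to 2269 CPM in db/m. Erythroid and megakaryocyte sums were higher in every db/db library than in any db/m library, lymphoid sums were lower, and the other sums overlapped. Abundant genes weigh most in a sum, and as mean centred log2 levels, which weigh the genes of a list equally, the groups overlapped for the erythroid list (0.075, -0.64, 2.12 and 0.86 in db/db and -0.47, -1.18, -0.19 and -0.58 in db/m) and for the lymphoid list (-0.43, -0.56, -0.62 and 0.16 in db/db and 0.53, 0.15, 0.37 and 0.40 in db/m). The 12 macrophage markers summed to 255 to 5275 CPM in db/db and 965 to 1648 CPM in db/m. The mean centred log2 level of the dividing-cell list was -0.27, -0.25, 0.39 and -0.12 in db/db and -0.32, -0.55, 0.70 and 0.41 in db/m. Db/db replicate 3 and db/m replicate 3 were its highest libraries in their groups, as they were for Gapdh and Ldha. The same held for Tpi1, Pgk1, Eno1, Slc16a1, Pdk1, Pdha1, G6pdx, Pgls and Tkt. It also held for Cs, Idh2, Idh3a, Idh3g, Suclg1, Fh1 and Mdh2. Each of the remaining genes followed step by step was highest in another library in db/db, in db/m or in both. For Aldoa, db/db replicate 3 and db/m replicate 3 were the lowest libraries in their groups. Pkm was highest in db/db replicate 1 and db/m replicate 2. Granulocyte-monocyte markers, centred the same way, were at -0.061, -0.78, -0.40 and -0.048 in db/db and -0.43, 0.42, 0.32 and 0.99 in db/m. Db/m replicate 1 was the lowest db/m library in that list, and it was also the db/m library that lay within the db/db range of Pgam1, Pgd and Ldhb. With the erythroid level as a covariate the median log2 fold change became -0.17 for glycolysis and -0.27 for the citrate cycle, and with the plasma cell level that of the pyruvate dehydrogenase gate became 0.071.

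**Figure D5:**
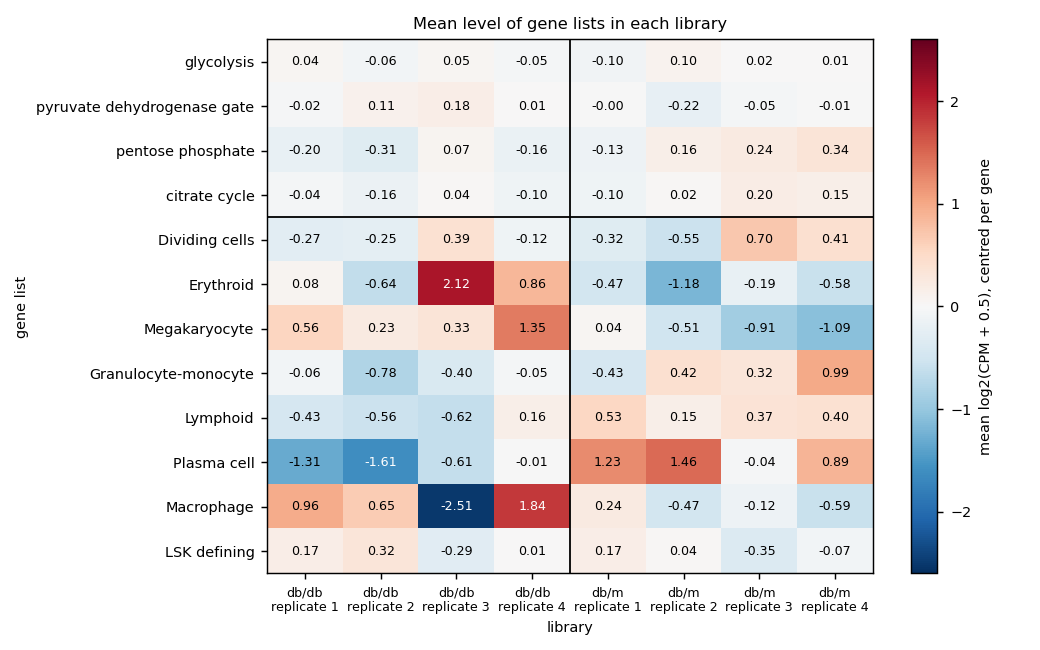
Mean centred log2 level of the 4 gene groups and of marker lists in each library, with the 4 db/db libraries left of the 4 db/m libraries. The pathway lists move by under 0.4 in either direction, while erythroid, megakaryocyte, plasma cell and macrophage lists move by more than 1 in single libraries.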

How the data were processed

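Per the submitters' processing notes, reads were checked with FastQC 0.11.5, aligned to mm10 with STAR 2.7.10a and counted with featureCounts of Subread 2.0.3, and edgeR 3.40.2 was used. The sources used here give neither the annotation nor the strand setting. The deposited table gives raw counts per gene for the 8 libraries, with log2 CPM, a log2 fold change, a p-value and a false discovery rate by the authors. The deposited log2 CPM equalled TMM-scaled values with a prior count of 2, and the deposited p-values those of a likelihood ratio test, to within 4.97e-14 and 2.82e-09. Its smallest row total was 79 counts, so low genes had been left out before deposit. The table has 21 symbols turned into dates, none of them among the 46 genes. A deposited table of mapping categories (other counts) gave the intergenic share.

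From the counts, edgeR 4.0.16 in R 4.3.3 was fitted over all 13708 genes and 8 libraries (TMM scaling, filterByExpr, which removed no gene, quasi-likelihood test, Benjamini-Hochberg, threshold 0.05). The biological coefficient of variation was 31.3%. SE is the log2 fold change divided by the root of the F statistic. List levels and isozyme ratios used a pseudocount of 0.5, and ratios an exact permutation test over 70 arrangements. No 2 libraries agreed within sampling noise, with a chi-square per gene of at least 47.9. The edgeR script was tested on simulated data. Alternatives used limma 3.58.1 and DESeq2 1.42.0.

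The 46 genes and all lists were chosen with earlier results of these data known. Values by library are given for genes with an unadjusted p under 0.05, genes whose groups do not overlap, and the most abundant gene per length of each step. Of other pathway genes and regulators, up to 6 of smallest p are named. Hif1a, Got2 and Slc25a11 were added for their roles.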

Additional observations from a re-analysis of the deposited data

Results flagged for a closer look

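Of 92 sets of 4 libraries (46 genes in each genotype), 2 held a library far from the other 3 by Dixon's criterion, and chance alone flags about 1 in 20. Idh3a had 203 CPM in db/db replicate 3, where the other db/db libraries had 141 to 148 CPM and the db/m libraries averaged 169 CPM. Pfkm had 66.1 CPM in db/m replicate 4, where the other db/m libraries had 59.3 to 59.8 CPM and the db/db libraries averaged 76.7 CPM. Neither gene had an unadjusted p under 0.05 in edgeR's quasi-likelihood test.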

How the results depend on the processing

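No paired analysis was possible because replicates were numbered in accession order and the title prefixes are nested within genotype. The count of genes called across the whole table moved widely, from 5 to 0 with upper-quartile scaling, 757 with DESeq2, 587 with the likelihood ratio test, 0 with limma-voom, 192 with quality weights, 14 with the title prefix as a correlated block, 1 with a plasma cell covariate and 0 with an erythroid covariate. Leaving out each library in turn gave 0 to 90. For the 46 genes the call changed under DESeq2 only, which called 1, Mdh1, at a log2 fold change of -0.37, and leaving out any library called 0. Members whose groups do not overlap came to 2 with RLE scaling, where the share of all genes was 9.15%. They came to 1 to 10 without single libraries, where the share of all genes was 10.8% to 17.9%. Members at an unadjusted p under 0.05 came to 12 with quality weights and to 3 to 12 without single libraries. For these refits the share of all genes under that p was not counted. The median log2 fold change of the gate was 0.071 with the plasma cell covariate. That of glycolysis was -0.17 and of the citrate cycle -0.27 with the erythroid covariate, and that of the citrate cycle was -0.24 to -0.086 without single libraries. The glycolysis median was -0.14 to -0.026 without single libraries. The pentose phosphate median was -0.39 to -0.24 without single libraries. Signs were followed for the 32 of the 46 genes given values by library, and 27 kept the sign of the fold change under all alternatives run. The other 14 of the 46, the further pathway genes and the regulators were not followed gene by gene. The exceptions were Aldoa (0.0044 with the plasma cell covariate, 0.037 with the erythroid one), Pdhb (0.049 with the plasma cell covariate, -0.13 to 0.019 without single libraries), Slc16a1 (-0.39 with the erythroid covariate, -0.15 to 0.33 without single libraries), Ldha (-0.14 to 0.059) and Tkt (-0.19 to 0.012). The cause of these changes was not tested. The title prefix and the genotype cannot be told apart.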
